A study of Danio rerio with 10 samples.

Results

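Nuclear hormone receptors and the cofactors that bind them were described across kidney marrow of CREB and control zebrafish. Members were chosen by gene symbol alone: every gene whose single symbol in the platform annotation named a nuclear receptor subfamily, a retinoid, thyroid hormone, vitamin D, oestrogen or peroxisome proliferator-activated receptor (a PPAR coactivator gene is picked up by that prefix), or an ncoa or ncor cofactor. The circadian receptor genes nr1d1 and nr1d2a, the glucocorticoid receptor gene nr3c1 and nr5a1a were excepted. The rule gave 46 genes out of 8793 named genes on the array, measured by 58 of 15502 probe sets, and the brightest probe set over all 10 arrays stood for each gene. The prefix for thyroid hormone receptors also took in thrap3b, which encodes a receptor-associated protein of the RNA-processing machinery and no receptor. No gene for a peroxisome proliferator-activated receptor itself was among the 46.

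The study compared fish that overexpress human CREB, a transcription factor switched on by cyclic AMP signalling, with control fish. Each group held 5 samples, with 1 array per sample. The sample titles do not say whether a sample came from 1 fish or from several. Each value was a log2 signal from whole kidney marrow, the blood-forming organ of the adult fish. The promoter that drives the transgene, the strain and the age of the fish were not given in the sources used here. The series' title names leukaemia and a block of myeloid differentiation as its subject. Nothing in the labels says that arrays share an extraction or a day, so no batch could be tested. The p-values set the difference between groups against the spread between arrays of the same group.

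Nuclear receptors are transcription factors whose ligand-binding domain senses small fat-soluble molecules such as steroids, thyroid hormone, retinoic acid, vitamin D, bile acids and fatty acids, while orphan receptors act without a known natural ligand. Many of them bind DNA as partners of the retinoid X receptor. Without ligand some of them, such as the retinoic acid and thyroid hormone receptors, recruit corepressors such as NCoR, which carry histone deacetylases. With ligand these receptors exchange corepressors for coactivators of the NCOA and PGC families. In blood formation retinoic acid receptors are known for their part in granulocyte maturation, and in mammals NR4A receptors are known as rapid targets of cyclic AMP signalling.

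The arrays differed in more than genotype. Median signals ran from 5.72 to 5.93, and any 2 arrays correlated across probe sets at a Pearson's r of 0.818 to 0.981. Neutrophil markers were bright on every array, yet 5 of 10 were lower in CREB fish and 0 higher, with a mean level of 9.64 to 10.69 on CREB arrays and 10.48 to 11.56 on control arrays. Of 8 macrophage markers 1 was lower and 0 higher, and of 5 lymphoid markers 2 were higher and 0 lower. Of 7 thrombocyte markers 4 were lower and 0 higher, at 4.83 to 5.39 against 5.46 to 6.89, and of 10 erythroid markers none passed in either direction. Control arrays 3, 4 and 5 carried gonad and egg transcripts, at a mean level of 9.76, 8.19 and 9.76. That level was 6.0 and 5.35 on control arrays 1 and 2, 7.50 on CREB array 4 and 5.09 to 6.03 on the other CREB arrays. Control arrays 4 and 5 also carried exocrine pancreas transcripts. CREB arrays 3 and 5 had a gapdh 5' signal of 6.50 and 6.74, against 9.54 to 10.70 on the other arrays, while their 3' signal was inside the range of the rest. The 13 kidney tubule and glomerulus markers, of which 11 were higher in CREB fish and 0 lower, had a mean level of 8.40 to 9.52 on CREB arrays and 7.19 to 7.86 on control arrays. The 17 skeletal muscle markers, of which 15 were higher and 0 lower, had 7.61 to 10.18 against 5.16 to 5.60. The part of these cell and tissue transcripts, liver and pancreas included, in the differences of the members was not tested. In such bulk tissue a change in the number of cells of a type and a change in RNA per cell cannot be told apart.

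Of the 46 genes, 21 were higher in CREB fish, 1 was lower and 24 did not pass (limma, adjusted p under 0.05 over all probe sets). Over all 15502 probe sets 23.5% were called higher and 6.79% lower, so 45.7% of the members were called higher beside 23.5% of all probe sets, and 2.17% lower. In either direction 22 members, or 47.8%, were called beside 30.3% of all probe sets. The members' median log2 difference was 0.33, beside 0.18 over all probe sets. Of the 46 differences 39 were above 0, beside 62.7% of all probe sets. That share was 75.7% among probe sets with a mean below log2 6 and 48.5% among the brighter ones. Of the 21, 7 rose by at least 1 on the log2 scale: nr4a1 by 3.05, ppargc1b by 2.58, hnf4g by 2.17, ncoa7a by 1.66, esr2b by 1.28, rorab by 1.22 and nr2f5 by 1.0. How many of all probe sets rose by at least 1 was not counted. All CREB arrays exceeded all control arrays in 14 members, or 30.4%, beside 19.6% of all probe sets, and lay below all of them in 1, beside 4.20%. The count of 21 changed with the arrays used. It was 10 without CREB arrays 3 and 5, when 10.7% of all probe sets were higher. It was 1 without control arrays 3, 4 and 5, when 0.922% were and only control arrays 1 and 2 remained. The members' median difference was 0.37 and 0.28 in these fits. The part of the smaller number of arrays in the lost calls was not tested. No member was lower in either case, beside 2.39% and 1.46% of all probe sets.

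**Figure D1:**
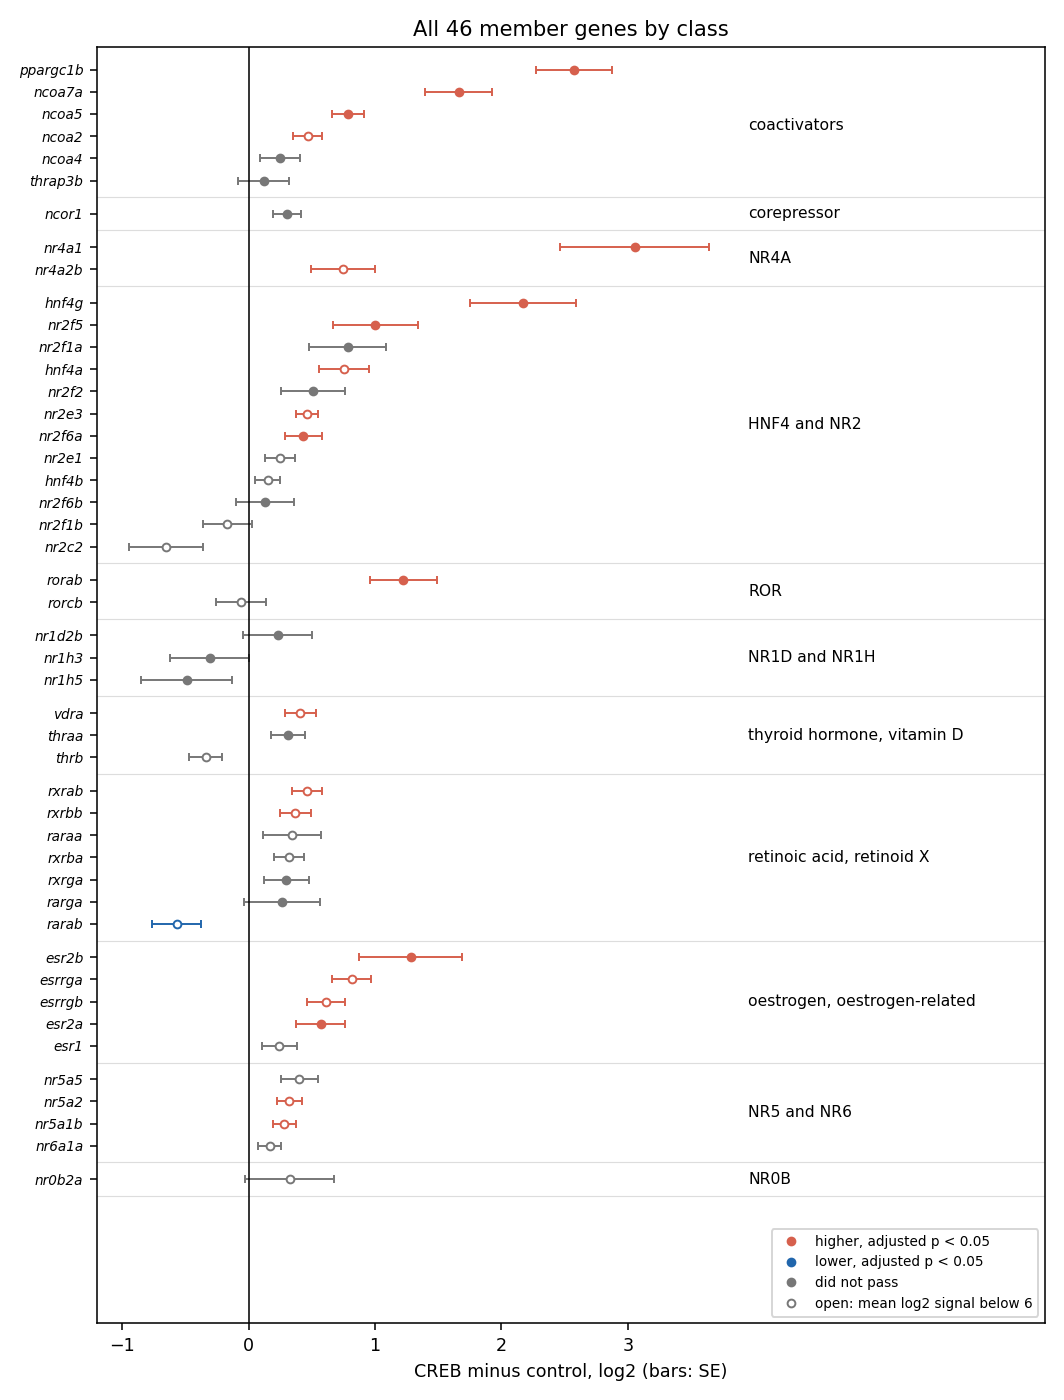
Difference in log2 signal between CREB and control fish for each of the 46 member genes, grouped by class, with bars for the SE of the limma fit. Red marks the 21 genes called higher and blue the 1 called lower, and open circles are genes with a mean log2 signal below 6, all of which have differences under 1 in size.

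Part of the members gave signals close to those of probe sets with no zebrafish target. The array carries 44 control probe sets for tag sequences and bacterial genes, and every one of them was higher on average in CREB than in control arrays, with differences from 0.04 to 0.62 and a median of 0.24. Their mean signals reached 5.38, and 19 members lay at or below that signal. Of the 21 members called higher, 10 had a difference no larger than the 0.62 of those control probe sets and 11 had a larger one. The shares of all probe sets within that signal or that difference were not counted. Among the 24 members with a mean signal below log2 6, 11 were higher, or 45.8%, beside 30.4% of all probe sets this dim, and 1 was lower, beside 2.84%. Among the 22 brighter members 10 were higher, or 45.5%, beside 15.9% of the probe sets this bright, and 0 were lower, beside 11.1%. How far the higher background signal of the CREB arrays entered the differences of dim genes was not tested.

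**Figure D2:**
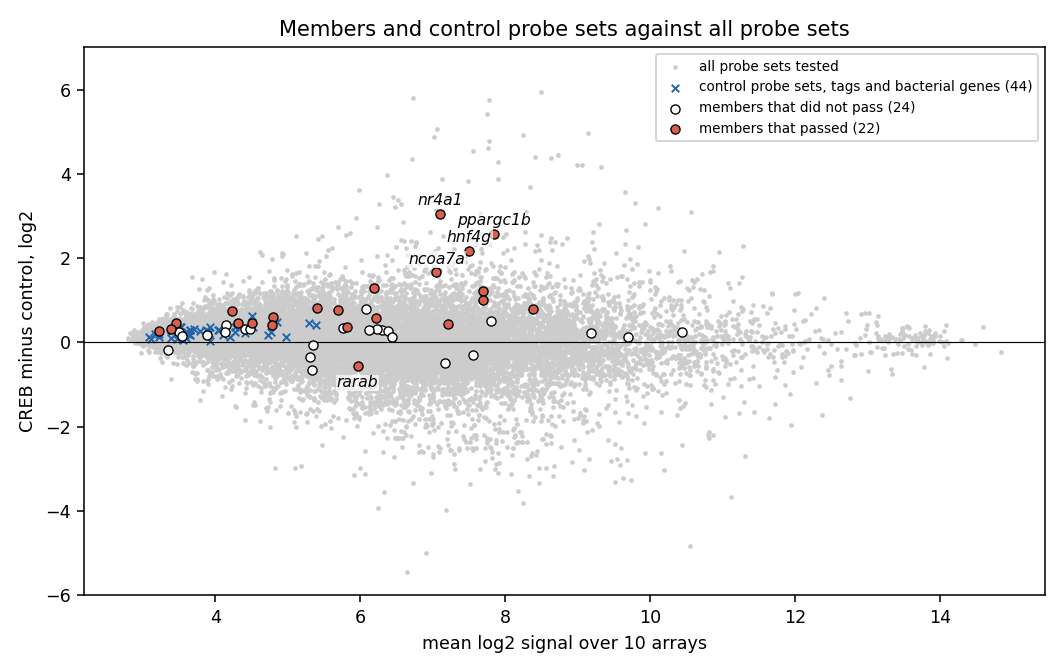
Difference in log2 signal (CREB minus control, vertical axis) against mean log2 signal over 10 arrays for all 15502 probe sets (grey), the 44 control probe sets (blue crosses) and the 46 members (circles, filled where they passed). At signals up to 5.38 the members other than nr4a2b and nr2c2 differ by no more than 0.62 in size, while nr4a1, ppargc1b, hnf4g and ncoa7a stand apart from them.

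Cofactors were considered first. Of 6 genes in the coactivator group, 4 rose and 2 did not pass, or 66.7% higher beside 23.5% of all probe sets. The coactivator gene ppargc1b encodes PGC-1 beta, which in mammals drives mitochondrial and fatty acid oxidation genes together with PPAR and oestrogen-related receptors. Its log2 signal was 9.19, 8.80, 9.48, 8.74 and 9.47 on CREB arrays 1 to 5, and 7.66, 6.66, 6.12, 6.20 and 6.18 on control arrays 1 to 5. The groups did not overlap, and control array 1 was the highest of its group. The difference of 2.58 ± 0.30 (SE), a 5.96-fold rise, passed the test (limma, adjusted p = 0.00146). Its other probe set, with a lower signal, also rose, by 0.73 ± 0.16 (limma, adjusted p = 0.0111). Of all members ppargc1b alone still passed once control arrays 3, 4 and 5 were left out, at 1.98 (adjusted p = 0.0339, the highest over all alternatives).

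The gene ncoa7a encodes a coactivator whose mammalian counterpart binds the oestrogen receptor and protects against oxidative stress. Its signal was 7.58, 7.39, 8.46, 7.56 and 8.42 on CREB arrays 1 to 5 and 6.44, 6.57, 5.62, 6.40 and 6.06 on control arrays 1 to 5. No control array reached the lowest CREB array, and CREB arrays 3 and 5 were the highest. The rise was 1.66 ± 0.27 on the log2 scale (SE), or 3.17-fold (limma, adjusted p = 0.00424). A second probe set rose by 1.84 ± 0.32 (adjusted p = 0.00535) with another order among CREB arrays, 8.42, 7.59 and 6.92 on arrays 1, 2 and 4, and 6.55 and 6.84 on arrays 3 and 5, those with the low gapdh 5' signal. The brighter probe set gave 1.29 once CREB arrays 3 and 5 were left out (adjusted p = 0.0163), and 1.38, short of the threshold, once control arrays 3, 4 and 5 were (adjusted p = 0.0754).

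The coactivator gene ncoa5 rose by a smaller amount with little spread. Its signal was 8.78, 8.86, 8.74, 8.66 and 8.82 on CREB arrays 1 to 5 and 8.19, 8.18, 7.72, 8.12 and 7.72 on control arrays 1 to 5, with no overlap. The rise of 0.79 ± 0.13 (SE), or 1.73-fold, passed (limma, adjusted p = 0.00442), and 0.59, short of the threshold, was left when control arrays 3, 4 and 5 were removed (adjusted p = 0.0592). Its mammalian counterpart binds oestrogen receptors. The gene ncoa2, which encodes a coactivator of the steroid receptor coactivator family, rose from 4.27 ± 0.10 to 4.73 ± 0.19 (n = 5 each, SD; limma, adjusted p = 0.0163), a difference of 0.47 inside the range of the control probe sets. Under quantile and cyclic loess scaling ncoa2 was at 0.21 and 0.18 and did not pass, although its groups did not overlap in the deposited values.

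Of the coactivator group, ncoa4, which encodes the cargo receptor that delivers ferritin iron to the lysosome, and thrap3b did not pass. The gene ncoa4 was at 10.57 ± 0.33 against 10.32 ± 0.14 in control fish (n = 5 each, SD). The interval of its difference ran from -0.11 to 0.61 (95%; limma, adjusted p = 0.245). For thrap3b the interval ran from -0.33 to 0.56 (adjusted p = 0.659). The corepressor gene ncor1, the only measured member of its kind, was at 6.44 ± 0.13 against 6.14 ± 0.14 (n = 5 each, SD), a difference of 0.30 ± 0.11 (SE) that missed the threshold (limma, adjusted p = 0.0573). It passed only without CREB array 4, at 0.35 (adjusted p = 0.0386).

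**Figure D3:**
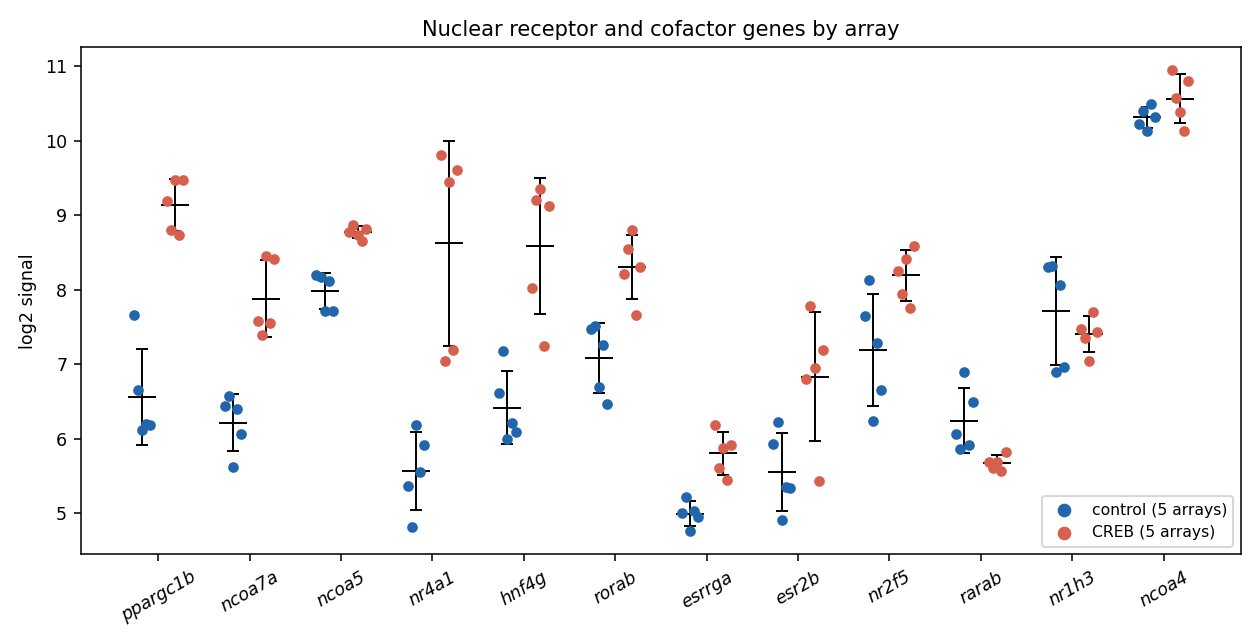
Log2 signal on each array for 12 members, control arrays in blue and CREB arrays in red, in order of replicate number, with the mean and SD of each group in black. In ppargc1b, ncoa7a, ncoa5, nr4a1, hnf4g, rorab and esrrga every CREB array lies above every control array, and in rarab every CREB array lies below every control array.

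Both measured receptors of the NR4A subfamily, orphan receptors that respond quickly to hormones and stress, rose, beside 23.5% of all probe sets. The gene nr4a1 had a signal of 9.81, 7.05, 9.45, 7.19 and 9.61 on CREB arrays 1 to 5 and of 5.36, 4.82, 6.19, 5.55 and 5.92 on control arrays 1 to 5. CREB arrays 1, 3 and 5 stood well above CREB arrays 2 and 4, and all lay above the control arrays. The rise was 3.05 ± 0.59 on the log2 scale (SE), or 8.31-fold (limma, adjusted p = 0.00775). With CREB arrays 3 and 5 left out it was 2.45 (adjusted p = 0.0430), and with control arrays 3, 4 and 5 left out 3.53, which did not pass (adjusted p = 0.0745). Its paralogue nr4a2b had a dim signal of 4.45, 4.14, 4.85, 4.07 and 5.51 on CREB arrays 1 to 5 and of 3.73 to 4.07 on control arrays. CREB array 4 and control array 4 were level, at 4.07. The rise of 0.75 ± 0.25 (SE; limma, adjusted p = 0.0488) was lost when any of 8 arrays was left out, and it was 0.36 without CREB arrays 3 and 5 (adjusted p = 0.104).

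Receptors of the HNF4 and NR2 subfamilies numbered 12, of which 5 rose and 7 did not pass, or 41.7% higher beside 23.5% of all probe sets. HNF4 receptors are known from liver, intestine and kidney tubule, where they switch on genes of the differentiated epithelium. The gene hnf4g was at 8.03, 9.20, 9.35, 7.24 and 9.12 on CREB arrays 1 to 5 and at 6.62, 7.18, 6.0, 6.21 and 6.09 on control arrays 1 to 5. CREB array 4 and control array 2 nearly met. The rise was 2.17 ± 0.42 on the log2 scale (SE), or 4.51-fold (limma, adjusted p = 0.00772). The kidney marker level on the same arrays was 9.40, 9.52, 9.27, 8.40 and 9.32 in CREB fish and 7.73, 7.86, 7.19, 7.42 and 7.56 in control fish, so CREB array 4 had the lowest value of its group for both and control array 2 the highest of its group for both. CREB array 4 was also the lowest of its group for other members, such as ncoa5, esrrga and rarab. Control array 2 was also the highest of its group for rorab and esrrga. The part of kidney tissue in the rise of hnf4g was not tested. A difference of 1.69, short of the threshold, remained for hnf4g when control arrays 3, 4 and 5 were removed (adjusted p = 0.129).

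The related gene hnf4a rose by 0.76 ± 0.20 (SE; limma, adjusted p = 0.0201), from 5.31 ± 0.31 to 6.06 ± 0.34 (n = 5 each, SD). CREB arrays 3 and 4, at 5.69 and 5.79, lay below control array 1, at 5.84. A second, dimmer hnf4a probe set was at -0.02 (adjusted p = 0.930), and the brighter one kept 0.49 after removal of control arrays 3, 4 and 5 (adjusted p = 0.254). The remaining paralogue, hnf4b, was at 3.61 ± 0.06 against 3.46 ± 0.13 (n = 5 each, SD; adjusted p = 0.239), no brighter than control probe sets. Liver markers, as a group, were at 9.51 on CREB array 5 and between 5.80 and 7.33 on the other 9 arrays, and their part in the values of the HNF4 genes was not tested.

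**Figure D4:**
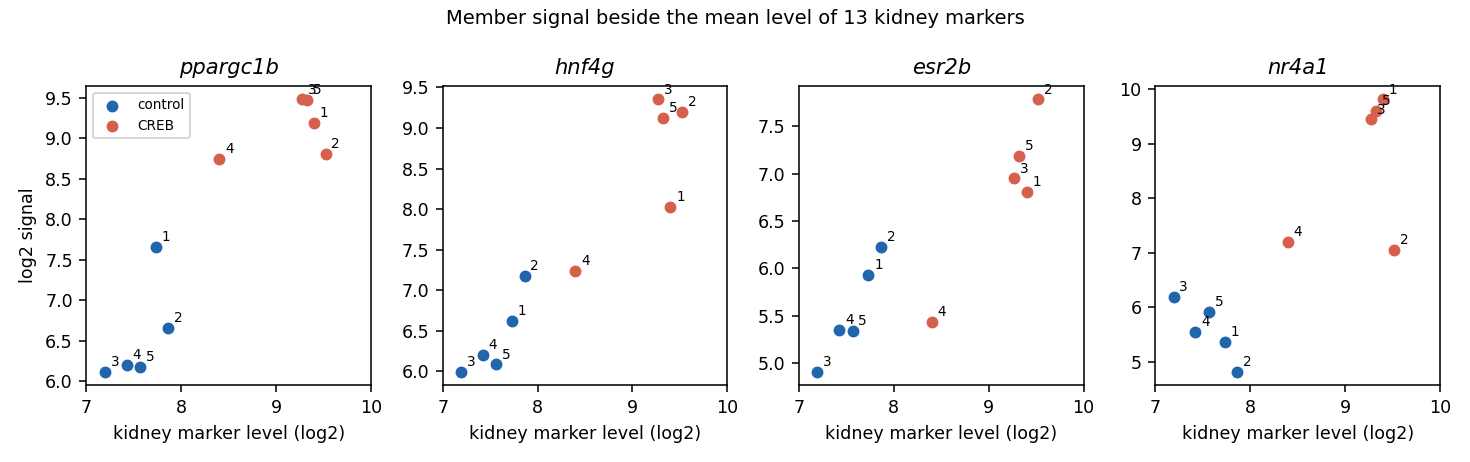
Log2 signal of ppargc1b, hnf4g, esr2b and nr4a1 (vertical axes) against the mean log2 level of 13 kidney markers on the same array (horizontal axes), with CREB arrays in red, control arrays in blue and replicate numbers beside the points. CREB array 4, with the lowest kidney level of its group at 8.40, is also the lowest CREB array for ppargc1b, hnf4g and esr2b. It is the lowest CREB array for many other members too, among them ncoa5, esrrga and rarab, so this order is not particular to the genes shown. The gene nr4a1 is lowest on CREB array 2, which has the highest kidney level, 9.52.

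The COUP-TF receptors of the NR2F subfamily, orphan receptors of vessel, nerve and organ development, gave 2 rises among 6 genes, beside 23.5% of all probe sets. The gene nr2f5 was at 8.26, 7.95, 8.41, 7.76 and 8.59 on CREB arrays 1 to 5 and at 7.64, 8.13, 6.24, 7.29 and 6.66 on control arrays 1 to 5. Control array 2 lay above CREB arrays 2 and 4, and control arrays 3 and 5 were the lowest. These carried egg transcripts, but so did control array 4, at 7.29 for nr2f5. Control arrays 3 and 5 also had the lowest neutrophil, macrophage, thrombocyte and lymphoid marker levels of their group. The part of any of these tissues in the nr2f5 values was not tested. The rise of 1.0 ± 0.34 (SE; limma, adjusted p = 0.0469) came down to 0.31 without control arrays 3, 4 and 5 (adjusted p = 0.436). The gene nr2f6a rose from 6.99 ± 0.30 to 7.43 ± 0.10 (n = 5 each, SD; limma, adjusted p = 0.0498), with control arrays 3 and 5, at 6.75 and 6.59, again the lowest. The groups did not overlap, and removing control arrays 3, 4 and 5 left a difference of 0.20 (adjusted p = 0.332). With all arrays the nr2f6a difference, 0.43, was no larger than the largest of the control probe sets. The brightest of the subfamily that did not pass, nr2f2, was at 8.06 ± 0.33 against 7.55 ± 0.52 (adjusted p = 0.145).

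Of the remaining NR2 receptors, the photoreceptor-type orphan receptor gene nr2e3 rose by 0.46 ± 0.09 (SE; limma, adjusted p = 0.00711) at a signal among the lowest on the array. It was at 3.74, 3.64, 3.75, 3.56 and 3.76 on CREB arrays 1 to 5 and at 3.26, 3.24, 3.22, 3.13 and 3.27 on control arrays 1 to 5. The groups did not overlap, yet the difference was inside the range of the control probe sets, and it came down to 0.21 under cyclic loess scaling (adjusted p = 0.0735). The testicular receptor gene nr2c2 had a difference of -0.66 ± 0.29 that did not pass (SE; limma, adjusted p = 0.109). It was between 5.92 and 6.37 on control arrays 1, 2 and 4 but 5.14 and 4.82 on control arrays 3 and 5, and it passed as lower without control array 5, at -0.87, and with array weights, at -0.96 (adjusted p = 0.0419 and 0.0168).

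The retinoic acid-related orphan receptor gene rorab, whose products activate clock and lipid genes and oppose REV-ERB receptors, rose. Its signal was 8.21, 8.55, 8.80, 7.66 and 8.31 on CREB arrays 1 to 5 and 7.47, 7.52, 6.70, 7.26 and 6.47 on control arrays 1 to 5. CREB array 4 lay just above control array 2. The rise was 1.22 ± 0.26 on the log2 scale (SE), or 2.33-fold (limma, adjusted p = 0.0111), and it was 0.81 without control arrays 3, 4 and 5 and 1.06 without CREB arrays 3 and 5, where it did not pass (adjusted p = 0.135 and 0.0560). Its relative rorcb, a lymphoid and epithelial orphan receptor gene in mammals, was at 5.32 ± 0.25 against 5.38 ± 0.39 (n = 5 each, SD; adjusted p = 0.833). The REV-ERB beta paralogue nr1d2b was bright and varied within both groups, from 8.57 to 9.92 on CREB arrays and from 8.56 to 9.58 on control arrays (difference 0.23 ± 0.27, SE; adjusted p = 0.526).

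Neither sterol-sensing receptor of the NR1H subfamily passed, beside 30.3% of all probe sets called in either direction. The liver X receptor gene nr1h3, which governs cholesterol efflux in macrophages, was at 7.47, 7.36, 7.05, 7.70 and 7.44 on CREB arrays 1 to 5 and at 8.31, 8.33, 6.89, 8.07 and 6.97 on control arrays 1 to 5. The 3 control arrays numbered 1, 2 and 4 lay above every CREB array and the other 2 below all of them. Its difference was -0.31 ± 0.31 (SE; limma, adjusted p = 0.453). The mean level of 8 macrophage markers divided the control arrays the same way, with 10.47, 10.48 and 10.22 on control arrays 1, 2 and 4 and 9.82 and 9.55 on control arrays 3 and 5. Neutrophil, thrombocyte and lymphoid marker levels divided them this way too, and gonad and egg levels did so in the opposite direction. The part of any of these cells in the nr1h3 values was not tested. The related bile acid receptor-like gene nr1h5 had a difference of -0.49 ± 0.36 (SE; adjusted p = 0.306).

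Among retinoid receptors, 2 of 7 rose, 1 fell and 4 did not pass. The 28.6% higher was near the 23.5% of all probe sets, and the 14.3% lower, a single gene, stands beside 6.79%. The gene rarab, which encodes a retinoic acid receptor alpha, was the only member to fall. It was at 5.69, 5.60, 5.69, 5.57 and 5.83 on CREB arrays 1 to 5 and at 6.07, 5.86, 6.89, 5.91 and 6.49 on control arrays 1 to 5. No control array reached down to the CREB arrays, but control array 2, at 5.86, and CREB array 5, at 5.83, were almost level. Control arrays 3 and 5, with the highest gonad and egg levels, were the highest for rarab. Control array 4, with a gonad and egg level of 8.19, lay below control array 1 for rarab. CREB array 4, with the highest such level of its group at 7.50, was the lowest for rarab. The part of egg transcripts in the rarab values was not tested. The difference was -0.57 ± 0.19 (SE; limma, adjusted p = 0.0497), and it was lost when any of 8 arrays was left out. It was -0.29 once the 3 control arrays with egg transcripts were removed (adjusted p = 0.219). Its duplicate raraa, at 5.93 ± 0.31 against 5.58 ± 0.46 (n = 5 each, SD), did not pass (adjusted p = 0.265).

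The retinoid X receptor genes rxrab and rxrbb, which encode the shared partner of many receptors, rose by 0.46 ± 0.12 and 0.37 ± 0.12 (SE; limma, adjusted p = 0.0198 and 0.0461). Both differences were inside the range of the control probe sets, and neither gene passed under any of the quantile, median and cyclic loess scalings. The genes rxrba and rxrga, at differences of 0.32 ± 0.12 and 0.30 ± 0.18, did not pass (adjusted p = 0.0703 and 0.203). The retinoic acid receptor gamma gene rarga was the brightest of the group that did not pass, at 6.51 ± 0.31 against 6.25 ± 0.66 (n = 5 each, SD; adjusted p = 0.508).

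Thyroid hormone and vitamin D receptors gave 1 rise in 3 genes, or 33.3% beside 23.5% of all probe sets. The vitamin D receptor gene vdra went from 4.58 ± 0.19 to 4.99 ± 0.14 (n = 5 each, SD; limma, adjusted p = 0.0315), a difference inside the range of the control probe sets. The thyroid hormone receptor gene thraa did not pass, at 6.39 ± 0.22 against 6.08 ± 0.17 (adjusted p = 0.101). The beta receptor gene thrb was measured by 4 probe sets that did not move together. The brightest was at -0.34 ± 0.13 (SE; adjusted p = 0.0656) and passed as lower under quantile and cyclic loess scaling, at -0.50 and -0.59 (adjusted p = 0.0182 and 0.00747). It also passed as lower with array weights and without CREB array 1. Another rose by 0.59 ± 0.12 (adjusted p = 0.00833), and the remaining ones, at 0.39 and 0.09, did not pass, so no direction is given for this gene.

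**Figure D5:**
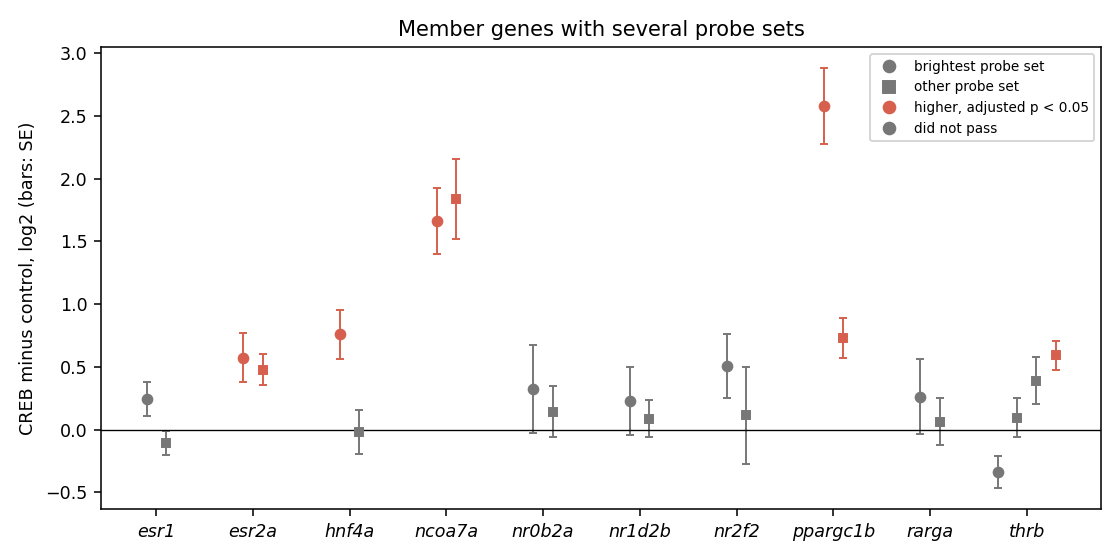
Difference in log2 signal (CREB minus control, bars SE) for each probe set of the 10 members with several probe sets, circles for the brightest and squares for the others, red where the probe set passed as higher. The probe sets of ppargc1b, ncoa7a and esr2a all rose, while those of thrb lie on both sides of 0 and only the brighter of the hnf4a probe sets passed.

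Of the 10 members with several probe sets, 2 (hnf4a and thrb) had some probe sets that passed and some that did not, and 3 (esr1, hnf4a and thrb) had opposite signs among theirs. In nr2f2 the dimmer probe set was at 7.11, 7.31 and 6.03 on CREB arrays 1, 2 and 4 and at 5.41 and 5.39 on CREB arrays 3 and 5, as the dimmer ncoa7a probe set was. The brighter nr2f2 probe set did not show this order, with 7.99 and 8.17 on CREB arrays 3 and 5.

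Oestrogen and oestrogen-related receptors gave 4 rises in 5 genes, or 80% beside 23.5% of all probe sets. The genes esrrga, esrrgb and esr1 had a mean below log2 6, where 30.4% of probe sets were higher. For esr2a and esr2b, which were brighter, the share was 15.9%. Oestrogen-related receptors are orphan receptors that work with PGC-1 coactivators on genes of energy metabolism. The gene esrrga was at 6.18, 5.61, 5.88, 5.45 and 5.92 on CREB arrays 1 to 5 and at 5.0, 5.22, 4.76, 5.02 and 4.95 on control arrays 1 to 5, with no overlap. Its mean signal, 5.40, was close to the 5.38 of the brightest control probe set. The rise was 0.82 ± 0.15 on the log2 scale (SE), or 1.76-fold (limma, adjusted p = 0.00694), and 0.59 under cyclic loess scaling, where it still passed. Its duplicate esrrgb, dimmer at 5.09 ± 0.27 against 4.48 ± 0.20 (n = 5 each, SD), rose by 0.61 ± 0.15 (limma, adjusted p = 0.0173), also without overlap. The difference and signal of esrrgb were inside the range of the control probe sets, and it did not pass under quantile or cyclic loess scaling.

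The oestrogen receptor beta gene esr2b was at 6.80, 7.78, 6.95, 5.43 and 7.19 on CREB arrays 1 to 5 and at 5.93, 6.23, 4.91, 5.35 and 5.34 on control arrays 1 to 5. CREB array 4 lay inside the control range, and the other CREB arrays lay above that range. The rise of 1.28 ± 0.41 (SE; limma, adjusted p = 0.0393) was lost when any of 8 arrays was left out, and 0.75 was left after removal of control arrays 3, 4 and 5 (adjusted p = 0.367). Its duplicate esr2a rose by 0.57 ± 0.19 and a dimmer esr2a probe set by 0.48 ± 0.12 (SE; limma, adjusted p = 0.0493 and 0.0201), and the groups did not overlap for the brighter of them. Both esr2a differences were no larger than the largest of the control probe sets. The oestrogen receptor alpha gene esr1, at 4.26 ± 0.21 against 4.01 ± 0.20, did not pass (adjusted p = 0.192).

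The NR5, NR6 and NR0B receptors, which act in steroid-producing tissue, liver and germ cells, were all dim, with mean signals between log2 3.22 and 4.48. The genes nr5a2 and nr5a1b rose by 0.32 ± 0.10 and 0.28 ± 0.09 (SE; limma, adjusted p = 0.0370 and 0.0384), both inside the range of the control probe sets. Under cyclic loess scaling they were at 0.07 and 0.04, and neither passed. The genes nr5a5 and nr6a1a, with differences of 0.40 and 0.17, did not pass (adjusted p = 0.0590 and 0.180), and neither did the small heterodimer partner gene nr0b2a, at 0.32 ± 0.35 (SE; adjusted p = 0.487).

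Whether duplicates moved unequally was tested for all 7 pairs of members whose symbols differ only in a last a or b, as the difference between the paralogues on each array. The largest gaps were between nr2f1a and nr2f1b, at 0.95 (exact two-sided permutation test, p = 0.0952), and between raraa and rarab, at 0.91 (p = 0.0556). The gap between hnf4a and hnf4b was 0.61 (exact permutation p = 0.0397). With p adjusted over the 7 pairs none passed (0.194 or more). The smallest p that 252 arrangements allow is 0.00794. If a single pair alone had that p, it would still miss the threshold after adjustment over 7 pairs. The adjusted test therefore could not decide for a pair on its own. So it is not shown that rarab moved otherwise than raraa, or hnf4a otherwise than hnf4b. Signals of different probe sets need not respond alike, which limits this comparison.

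The calls differed in how they held when arrays were left out or scaled otherwise. When any array was left out, 12 of the 22 called members kept their call. These were ppargc1b, ncoa7a, ncoa5, ncoa2, nr4a1, hnf4g, hnf4a, nr2e3, rorab, esrrga, esrrgb and rxrab. The other 10 (esr2a, esr2b, nr2f5, nr2f6a, nr4a2b, nr5a1b, nr5a2, rarab, rxrbb and vdra) each lost it in 7 to 9 of the 10 cases, with a highest adjusted p of 0.104. Under all of quantile, median and cyclic loess scaling 8 members passed: ppargc1b, ncoa7a, ncoa5, nr4a1, hnf4g, rorab and esrrga as higher and rarab as lower. So rxrab, ncoa2, nr2e3, esrrgb and hnf4a held with any array left out but not under every scaling, and rarab the reverse. How many of all called probe sets held in either way was not counted. From the deposited values to these scalings the median difference over all probe sets went from 0.18 to 0.04, 0.11 and -0.01. Under cyclic loess 7 members, or 15.2%, were higher beside 9.50% of all probe sets, under quantile scaling 8, or 17.4%, beside 11.1%, and under median scaling 11, or 23.9%, beside 12.9%. Members called lower numbered 2, 2 and 1 in that order, beside 8.80%, 7.28% and 7.50% of all probe sets. Without the dimmest 40% of probe sets 9 of 30 members were higher, beside 13.9%, and with a mean of at least log2 6 it was 7 of 22, beside 12.2%, with 0 lower in both cases beside 7.95% and 8.36%.

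Other genes of the receptor pathways, from lists that hold no member, were set beside these results. In cofactor complexes, 2 of 17 genes rose, 1 fell and 14 did not pass, with a median difference of -0.12 beside 0.18 over all probe sets. The 11.8% higher and 5.88% lower stand beside 23.5% and 6.79% of all probe sets, the shares against which each list was set. Most of these cofactor genes had a mean of at least log2 6, where 15.9% of probe sets were higher and 11.1% lower. The gene rbm14a, which encodes a coactivator-binding RNA protein, rose by 0.95 ± 0.12, and crebbpb, which encodes the CREB-binding acetyltransferase, by 0.49 ± 0.14 (SE; limma, adjusted p = 0.00226 and 0.0250). The deacetylase gene hdac3, the enzyme that works with NCoR, fell by 0.52 ± 0.17 (adjusted p = 0.0418). Its signal was 8.46 and 8.48 on control arrays 3 and 5, 8.08 to 8.10 on the other control arrays and at most 8.04 on CREB arrays. A second probe set each of crebbpb and hdac3 did not pass, and the acetyltransferase paralogue crebbpa was at 0.33 ± 0.16 (adjusted p = 0.125).

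Genes of retinoid metabolism and retinoic acid response gave 7 rises in 21 genes and no fall (median difference 0.33), or 33.3% higher beside 23.5% of all probe sets. Of the 7 rises, 4 were in dim genes inside the range of the control probe sets in both signal and difference: crabp2b, bco2a, hoxb1a and cyp26c1. The homeobox gene meis2a rose by 0.79 ± 0.18, the transglutaminase gene tgm2b by 0.71 ± 0.17, the retinoic acid hydroxylase gene cyp26c1 by 0.57 ± 0.14 and the retinaldehyde dehydrogenase gene aldh1a2, which makes retinoic acid, by 1.12 ± 0.33 (SE; all with a limma adjusted p of 0.0135 to 0.0303). The retinoic acid-induced hydroxylase gene cyp26a1, at 4.14 ± 0.24 against 4.39 ± 0.87 (n = 5 each, SD), did not pass (adjusted p = 0.617).

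PPAR targets and enzymes of fatty acid oxidation, which PGC-1 coactivators govern in mammals, gave 4 rises and 2 falls in 36 genes, and 30 did not pass, with a median difference of 0.01. The shares of 11.1% higher and 5.56% lower were below the 23.5% and 6.79% of all probe sets. Most of the list had a mean of at least log2 6, and of probe sets this bright 15.9% were higher and 11.1% lower. The carnitine carrier gene slc25a20 rose by 0.85 ± 0.12, the fatty acid activating enzyme gene acsl1a by 0.95 ± 0.16 and the lipid droplet gene plin3 by 1.15 ± 0.22 (SE; limma, adjusted p = 0.00314, 0.00463 and 0.00743). The auxiliary beta-oxidation genes decr1 and eci1 had differences of -1.16 ± 0.23 and -0.87 ± 0.20 (SE; adjusted p = 0.00785 and 0.0139). All 4 other acsl1a probe sets rose too, and of the other decr1 probe sets 1 fell and 1 did not pass.

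Targets of sterol and bile acid receptors gave 3 rises and 1 fall in 13 genes (median difference 0.70), or 23.1% and 7.69%, near the 23.5% and 6.79% of all probe sets. The apolipoprotein gene apoa4a rose by 1.02 ± 0.23, and the bile acid synthesis genes cyp8b1.1 and cyp27a1.1 by 0.52 ± 0.11 and 0.65 ± 0.17 (SE; all with a limma adjusted p of 0.00918 to 0.0211). The cyp8b1.1 difference and signal were inside the range of the control probe sets, and a second cyp8b1.1 probe set, at 0.07, did not pass. The ubiquitin ligase gene mylipa, an LXR target that degrades the LDL receptor in mammals, had a difference of -1.29 ± 0.33 (adjusted p = 0.0194). Its signal was 10.27 and 9.76 on control arrays 3 and 5, 8.76 to 8.91 on the other control arrays and at most 8.44 on CREB arrays. Of 12 genes in the vitamin D and xenobiotic receptor list 6 rose and 2 fell (median difference 0.41), beside 23.5% and 6.79% of all probe sets, and 30.4% higher among dim ones. Of the 6 rises, 5 were inside the range of the control probe sets in both signal and difference. The vitamin D hydroxylase gene cyp24a1, a direct vitamin D receptor target, rose by 0.44 ± 0.10 to a signal of 4.69 (SE; limma, adjusted p = 0.0128). Next by p in that list, the calretinin gene calb2b rose by 0.45 ± 0.11 and the transporter gene abcb5 by 0.57 ± 0.13, and the sulfotransferase gene sult1st1 had a difference of -0.79 ± 0.19 (adjusted p between 0.0135 and 0.0148). Those of cyp24a1, calb2b and abcb5 were among the 5, and a second cyp24a1 probe set, at 0.04, did not pass.

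In thyroid hormone metabolism and response, 1 of 5 genes passed, as higher, beside 23.5% of all probe sets. The thyroid hormone and glucocorticoid target gene klf9 rose by 2.53 ± 0.48 (SE; limma, adjusted p = 0.00746), from 6.46 ± 0.50 to 8.99 ± 1.09 (n = 5 each, SD). Its signal was 9.60, 9.80 and 9.94 on CREB arrays 1, 3 and 5 and 7.94 and 7.67 on CREB arrays 2 and 4, the same division of CREB arrays as for nr4a1. The deiodinase genes dio1 and dio2, whose products convert thyroid hormone, had differences of -0.44 and 0.88 with standard errors of 0.87 and 0.71 and did not pass. Among genes of steroid ligand synthesis 2 of 14 rose, 1 fell and 11 did not pass (median difference 0.22), or 14.3% higher and 7.14% lower beside 23.5% and 6.79% of all probe sets. The cortisol-inactivating enzyme gene hsd11b2, active in kidney tubule, rose by 1.48 ± 0.37, the brain aromatase gene cyp19a1b by 0.53 ± 0.15, and the bile acid synthesis gene hsd3b7 had a difference of -1.12 ± 0.35 (SE; limma, adjusted p = 0.0180, 0.0271 and 0.0381). The cyp19a1b value was inside the range of the control probe sets. Of its other probe sets 1 rose, by 0.69, and 1, at 0.16, did not pass (adjusted p = 0.00782 and 0.204).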

How the data were processed

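RNA from 5 CREB and 5 control samples of kidney marrow was labelled with biotin by the Affymetrix 3' IVT Express method, per the labels' protocols. The values are the authors' deposited log2 signals, a unit taken from the value range. How probe sets were summarised and arrays normalized was not given in the sources used here. Of 15617 probe sets, 115 controls were set aside. Symbols came from the platform annotation (1 symbol for 10795, several for 135, none for 4572), updated by Entrez ID with RefSeq (GRCz12tu), which left all 46 member symbols as they were.

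CREB was set against control with lmFit and eBayes of limma 3.58.1 (R 4.3.3). Two-sided p-values were adjusted by Benjamini-Hochberg over all 15502 probe sets at a threshold of 0.05, without filter or covariate. Filters on low values were alternatives: 22 members passed a mean of log2 6 and 30 the removal of the dimmest 40%. Python 3.11.15 and scipy 1.17.1 gave the exact permutation tests. On simulated data with known changes the fit was tested too. With 5 arrays per group their number limits the precision.

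Named were all members that passed, the brightest of each class that did not, and up to 4 of each pathway list by p; other members were added with their values known. Array values are given for the 8 smallest p and for some others. Members, lists and tests were chosen with earlier results of these data known.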

Additional observations from a re-analysis of the deposited data

Results flagged for a closer look

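In 3 members 1 array stood far from the other 4 of its group, with a gap to the nearest above Dixon's 95% critical value. Of 92 groups examined, chance alone would single out about 1 in 20. The bile acid-induced corepressor receptor gene nr0b2a stood at 5.97 on CREB array 3, where the remaining CREB arrays had 4.14 to 4.50. The retinoic acid receptor gene rarga stood at 7.07 on CREB array 4, where the remaining ones had 6.34 to 6.41. The germ cell receptor gene nr6a1a was at 3.70 on control array 3, against 3.82 to 3.84, at a signal no brighter than control probe sets.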

How the results depend on the processing

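With 21 alternatives, ppargc1b alone of the called members kept its call in each, and no called member changed sign. The median difference of the members stayed between 0.18 and 0.47. The count of 21 higher members became 11 with the replicate block (1762 of all probe sets were then higher), 9 without the dimmest 40% of probe sets, 7 with a mean of at least log2 6, 8, 11 and 7 under quantile, median and cyclic loess scaling, 10 without CREB arrays 3 and 5 and 1 without control arrays 3, 4 and 5. The higher count was 12 to 21 with any array left out, beside 16.0% to 25.3% of all probe sets, and the 1 lower member 0 to 1, beside 3.93% to 7.99%. That lower count was 0 with the replicate block, with either filter, with trend and robust variance, without CREB arrays 3 and 5 and without control arrays 3, 4 and 5, and 2 under quantile scaling, cyclic loess and array weights. Of all probe sets 3.97% were lower with the replicate block, 6.65% with trend and robust variance and 9.72% with array weights. Filters test fewer genes, and the alternatives with arrays left out use fewer arrays. The other causes were not tested. Deviations of same-numbered arrays correlated at -0.02 to 0.27, 2 of 5 pairs over 0.1, and 1 of 5 CREB arrays correlated best with its own number. With so few pairs, a pairing by replicate number is neither shown nor excluded.

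Only members that did not pass changed sign. Under quantile and cyclic loess scaling esr1 was at -0.016 and -0.032, hnf4b at -0.10 and -0.10 and nr6a1a at -0.094 and -0.10, and nr2e1 at -0.0040 under cyclic loess. Without control arrays 3, 4 and 5 nr1d2b was at -0.20, nr2f1b at 0.24, nr2f6b at -0.19 and thrap3b at -0.10. With array weights rarga and thrap3b were at -0.12. With 1 array left out nr0b2a ranged from -0.0091 to 0.49, rorcb from -0.15 to 0.071 and thrap3b from -0.0010 to 0.23, and nr0b2a was at -0.073 without CREB arrays 3 and 5. With the mean of its probe sets thrb was at 0.18. Over all probe sets the calls went from 4692 to between 369 and 5751, and calls that were higher from 77.6% to 60.4%, 63.3% and 51.9% under quantile, median and cyclic loess scaling. The array number limits what small differences can show.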
